A study of Mus musculus with 9 samples.

Results

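Methylation of histone H3 at lysine 4 and removal of methyl groups from lysine 27 are the chromatin reactions that act against Polycomb silencing, and 9 genes for such enzymes were examined in lymphoma cells of the mouse thymus. They were chosen by name from RefSeq (assembly GRCm38.p6), all 9 were found, and they stand among 21883 protein-coding genes on the autosomes, X and Y. There are 6 H3K4 methylases (Kmt2a, Kmt2b, Kmt2c, Kmt2d, Setd1a and Setd1b), and Kdm6a and Kdm6b are H3K27 demethylases. Kdm5b is neither: it removes methyl groups from H3K4, the reverse of what the methylases do, and is described here as the odd member.

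The cells came from the thymus of C57BL/6J mice and are labelled as T cell lymphoma cells driven by MYCN. ChIPmentation, in which a transposase adds sequencing adapters to antibody-bound chromatin, was done with 7 antibodies, 1 library each, against EZH2, SUZ12, H3K27me3, N-MYC, p300, H3K27ac and H3K4me3; 2 input libraries complete the 9 samples and are not used here. All samples carry the same strain, tissue and cell type labels, no normal thymus or untreated group is among them, and the labels name neither the promoter that drives MYCN nor the animal behind each antibody. With a single library per antibody, the spread between libraries is unknown and nothing was tested. The lists hold from 9798 peaks for N-MYC to 123056 for H3K27me3, and read depth is unknown. In chromatin from cells taken in bulk, a weaker signal in every cell and a signal in fewer cells cannot be told apart. The cell label was checked on marker genes, and 8 of 8 T-lineage genes had H3K4me3, H3K27ac and p300 peaks (51.1, 51.0 and 39.8% of all genes with a known start). Cd3d and Cd3g had identical values for all 3 (36.33, 25.79 and 7.51) and so are not separate readings. H3K4me3 was called at 1 of 4 B-cell genes, 0 of 4 myeloid genes and 1 of 4 thymic epithelial genes (Cd79a at fold enrichment 4.74 and Epcam at 19.26). H3K27ac was less selective and was called at 2 of 4 B-cell, 3 of 4 myeloid and 2 of 4 thymic epithelial genes. At the myeloid genes Cd68 (25.26) and Spi1 (19.83) it was within the range of the T-lineage genes, 16.47 (Cd2) to 30.21 (Tcf7). The other calls were at 5.31 (Epcam) or below.

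The H3K4 methylases work in large assemblies called COMPASS complexes, built on a shared core of WDR5, RBBP5, ASH2L and DPY30. SETD1A and SETD1B place most of the trimethyl mark at active promoters, KMT2A and KMT2B methylate promoters including those of developmental genes, and KMT2C and KMT2D place the monomethyl mark at enhancers. KDM6A travels with KMT2C and KMT2D. On the opposite side, Polycomb repressive complex 2 uses EZH2 as its catalytic subunit and SUZ12 as a scaffold to write H3K27me3. KMT2C, KMT2D and KDM6A are known as tumour suppressors in blood cancers. H3K4me1, the enhancer mark, was not among the antibodies.

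Promoter sequences in RefSeq, running from 250 bases before to 50 after the start (GRCm38.p6, the build that the submitters' processing notes also name), were matched for 6 of the 9 genes: Kmt2a, Kmt2c, Kmt2d, Setd1a, Kdm6a and Kdm5b. Of these, 5 are shown because the peaks described below bear on them. In Setd1a and Kmt2a the capitals mark the 21 bases around the N-MYC summit, in Kdm6a the E-box CACGTG (the sequence that MYC-family proteins recognise best), and in Kmt2c and Kdm5b every CpG, the dinucleotide read by CXXC domains of several H3K4 methylase complexes.
Setd1a, chr7:127777139-127777438, plus strand: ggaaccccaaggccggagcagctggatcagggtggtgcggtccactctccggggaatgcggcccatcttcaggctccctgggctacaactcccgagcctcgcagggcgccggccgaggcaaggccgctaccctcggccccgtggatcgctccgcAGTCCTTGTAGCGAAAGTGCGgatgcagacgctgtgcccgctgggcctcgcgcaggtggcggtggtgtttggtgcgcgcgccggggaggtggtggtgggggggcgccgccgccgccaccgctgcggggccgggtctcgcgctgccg
Kmt2a, chr9:44881240-44881539, minus strand: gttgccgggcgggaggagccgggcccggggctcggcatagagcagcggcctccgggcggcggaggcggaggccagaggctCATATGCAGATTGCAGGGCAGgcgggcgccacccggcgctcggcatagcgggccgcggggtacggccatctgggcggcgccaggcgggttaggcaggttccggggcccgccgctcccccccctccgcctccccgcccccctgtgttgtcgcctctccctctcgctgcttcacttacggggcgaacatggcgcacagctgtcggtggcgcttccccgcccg
Kdm6a, chrX:18162325-18162624, plus strand: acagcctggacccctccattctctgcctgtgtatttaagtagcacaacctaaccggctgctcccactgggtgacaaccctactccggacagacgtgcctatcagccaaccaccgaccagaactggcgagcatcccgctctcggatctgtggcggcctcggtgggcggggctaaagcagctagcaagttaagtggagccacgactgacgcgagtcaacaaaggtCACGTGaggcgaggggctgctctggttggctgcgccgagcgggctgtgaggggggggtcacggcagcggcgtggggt
Kmt2c, chr5:25498734-25499033, minus strand: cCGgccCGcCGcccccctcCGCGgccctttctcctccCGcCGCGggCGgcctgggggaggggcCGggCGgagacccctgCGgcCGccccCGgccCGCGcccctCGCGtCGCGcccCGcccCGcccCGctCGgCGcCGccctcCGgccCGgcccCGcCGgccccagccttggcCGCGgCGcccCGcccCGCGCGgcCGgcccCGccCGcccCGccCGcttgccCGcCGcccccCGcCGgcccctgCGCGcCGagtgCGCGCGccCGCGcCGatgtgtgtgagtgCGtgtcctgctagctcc
Kdm5b, chr1:134559928-134560227, plus strand: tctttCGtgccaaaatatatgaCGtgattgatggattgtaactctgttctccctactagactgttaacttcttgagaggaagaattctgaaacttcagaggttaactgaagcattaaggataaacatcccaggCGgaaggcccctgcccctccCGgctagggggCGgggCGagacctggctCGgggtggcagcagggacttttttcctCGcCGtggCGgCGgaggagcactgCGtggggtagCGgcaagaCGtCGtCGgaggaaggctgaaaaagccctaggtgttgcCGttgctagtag

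CACGTG, which reads the same on both strands, occurred in 1 of the 6 promoters, that of Kdm6a, with its first base 27 bases upstream of the start. It is found in 7.91% of 17491 protein-coding promoters of this length, in 13.0% of those whose gene had an N-MYC peak within 1 kb of the start and in 5.39% of those without. The variant CACGCG, searched on both strands and not overlapping the first motif, was in none of the 6 and in 12.2% of all promoters. The Kmt2c promoter was the most CpG-rich of the 6, with 56 CpGs and 88.0% G+C, more CpGs than 99.8% of promoters. Kmt2a had 36 CpGs, Setd1a 35, Kmt2d 27, Kdm6a 21 and Kdm5b 17, against a median of 13 over all promoters.

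Peaks were read within 1 kb of the start, any overlap counting. For Kmt2b, Setd1b and Kdm6b, whose start and strand were not used here, both annotated gene ends were read and a peak at either counted. The shares of genes in parentheses were read at the start alone, so for these genes they are not a like measure. On this reading EZH2 was called at 8 of the 9 genes (44.9% of 17491 protein-coding genes with a known start had it), p300 at 9 (39.8%), H3K27ac at 9 (51.0%) and H3K4me3 at 9 (51.1%). N-MYC was called at 5 (33.2%). SUZ12 was called at 0 of 9 (12.3% of genes) and H3K27me3 at 1 of 9 (23.7%). Thus 8 genes had EZH2 without either of the other Polycomb features (32.0% of genes), and 5, all of them methylases, had EZH2, N-MYC, p300, H3K27ac and H3K4me3 together (26.2% of genes). This set is not particular to methylases, since 3 of the 6 related demethylase genes described below had it too.

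**Figure D1:**
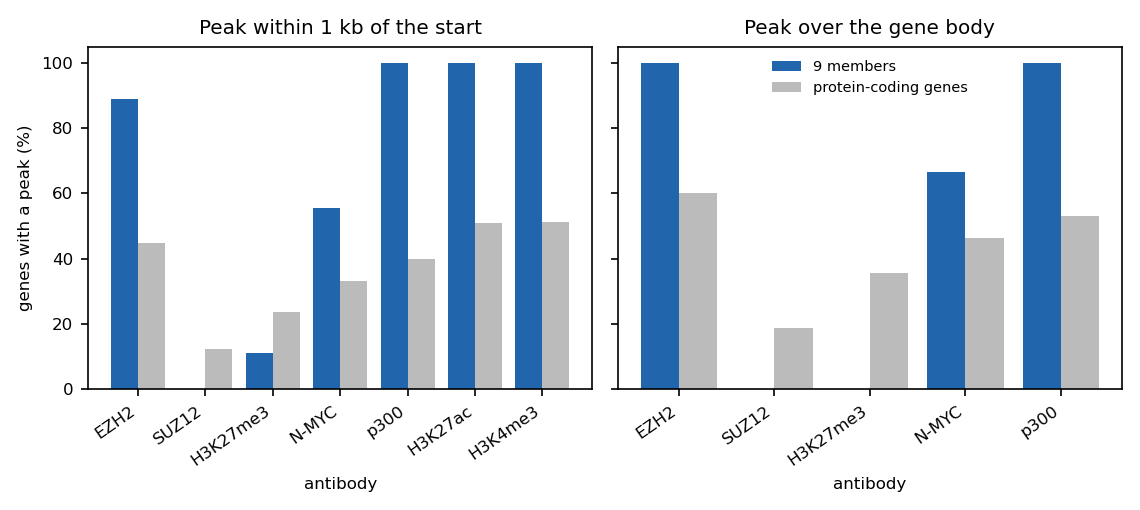
Percentage of genes with a peak of each antibody within 1 kb of the start (left) and over the gene body (right). Blue bars are the 9 genes, with either gene end read for 3 of them at the start; grey bars are 17491 protein-coding genes with a known start (left) and 9150 protein-coding genes of 20.2 to 227.1 kb (right). SUZ12 has no blue bar on either side, and H3K27me3 has one on the left, from Kdm6b alone.

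These shares have to be read against promoter strength. The weakest H3K4me3 peak among the 6 genes with a known start had a fold enrichment of 20.7, and among the 6116 genes with a peak at least that strong, 87.7% had EZH2, 92.2% p300, 76.3% N-MYC, 2.09% SUZ12 and 3.94% H3K27me3. EZH2 without SUZ12 or H3K27me3 was found at 83.8% of those strong promoters, and EZH2, N-MYC, p300, H3K27ac and H3K4me3 together at 68.3%. Of the 6 genes, 6 had EZH2 and p300, 4 had N-MYC and 0 had SUZ12 or H3K27me3, so their calls are like those of most promoters with as much H3K4me3. The other 3 genes were read at gene ends, where Kdm6b had less H3K4me3 than this.

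Kmt2a encodes MLL1, which is rearranged in acute leukaemias (chr9:44803355-44881352, minus strand). Its start carried peaks of fold enrichment 45.81 for H3K4me3, 7.37 for EZH2, 7.36 for N-MYC, 6.14 for p300 and 8.84 for H3K27ac, the fold enrichment being the ratio over background that the authors deposited for each peak. H3K4me3 was weaker at 98.8% of the 8935 genes with such a peak at the start, whereas H3K27ac was weaker at only 29.6% of 8929 genes. Kmt2a thus had the strongest H3K4me3 peak and the weakest H3K27ac peak among the 6 genes with a known start. EZH2 was called there as 2 peaks separated by 291 bp, from 398 to 108 bp upstream of the start, and the N-MYC summit, 160 bp upstream and capitalised in the sequence above, lay in that gap. The p300 summit lay 1536 bp upstream, outside the window that its 2517 bp peak reached. A lncRNA gene, Gm39326, spans the Kmt2a start.

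Kmt2b encodes the close relative MLL2 (chr7:30568855-30589056). No peak of any list lay within 1 kb of its low-coordinate end. At the high-coordinate end the fold enrichments were 31.46 for H3K4me3, 16.99 for H3K27ac, 6.32 for N-MYC, 5.52 for p300 and 4.76 for EZH2. Next to Kmt2a this is the lower value for H3K4me3, EZH2, N-MYC and p300 and the higher for H3K27ac. EZH2 at Kmt2b was the weakest such peak among the 8 genes that had one, and EZH2 was weaker at 27.1% of the 7854 genes with EZH2 at the start. The far end of Zbtb32, the lncRNA Gm32082 and the microRNA gene Mir3569 lie within 1 kb of the same gene end, so these peaks cannot be assigned to Kmt2b alone.

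Kmt2c and Kmt2d, the enhancer methylases, had the strongest EZH2 peaks of the family. At Kmt2c (chr5:25271795-25498855, minus strand) EZH2 reached 11.57, with H3K4me3 at 34.44, H3K27ac at 17.52, p300 at 8.19 and N-MYC at 7.05. The p300 and H3K27ac peaks at Kmt2c had the same limits, 1760 bp upstream and 1589 bp downstream of the start. Their summits lay 701 and 703 bp upstream, and whether they are separate readings was not tested. At Kmt2d (chr15:98831669-98874077, minus strand) EZH2 reached 10.59, with H3K4me3 at 34.96, H3K27ac at 17.99, p300 at 5.77 and N-MYC at 7.78. EZH2 was weaker at 96.4% of genes with an EZH2 peak for Kmt2c and at 95.1% for Kmt2d, while their H3K4me3 peaks ranked lower, above 77.1 and 78.5% of genes. In neither gene did SUZ12 or H3K27me3 accompany this EZH2 signal: the nearest SUZ12 peak was 541.2 kb from Kmt2c and 18.3 kb from Kmt2d, and the nearest H3K27me3 peak 112.4 and 18.6 kb away. Among the genes with a known start, Kmt2c was first in both EZH2 strength and promoter CpG count. Kdm5b, with the fewest CpGs, had more EZH2 (7.65) than Kmt2a, Setd1a or Kdm6a. The CpGs were counted in the RefSeq promoter sequence, and at each of these genes the strongest EZH2 summit lay outside it. Whether EZH2 strength is related to CpG content was therefore not tested.

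The starts of Kmt2c and Kmt2d were alike over all 7 lists. With log2(fold enrichment + 1) as the measure and 0 for no peak, they lay 0.48 apart, the smallest distance between any of the 4 methylases with a known start; the largest was 1.54, between Kmt2a and Setd1a. Outside the family, the gene with the most similar profile was Itm2b for Kmt2c (distance 0.218), 1110065P20Rik for Kmt2d (0.307), Tomm70a for Kmt2a (0.307) and Dedd for Setd1a (0.185).

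Setd1a, a promoter methylase (chr7:127777389-127800122, plus strand), had the reverse balance of H3K4me3 and H3K27ac to Kmt2a. Its H3K4me3 peak, at 20.70, was the weakest of the 6 genes and above only 31.6% of genes, while its N-MYC peak, at 9.60, was the strongest and above 87.0% of 5808 genes. EZH2 was 6.99, p300 6.89 and H3K27ac 18.59, the last above 79.5% of genes. The N-MYC summit lay 86 bp upstream of the start, on the capitalised bases, in a stretch that held neither E-box form searched. A weaker EZH2 peak (4.63) lay farther upstream, and the p300 summit, 366 bp upstream, fell in the 158 bp between the EZH2 peaks.

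Setd1b (chr5:123142040-123168630) differed from Setd1a in width and in N-MYC. At its low-coordinate end an H3K4me3 peak of 10473 bp reached a fold enrichment of 44.51, with H3K27ac at 23.08, p300 at 7.38, EZH2 at 6.88 and no N-MYC peak within 1 kb. This H3K4me3 peak was wider than 99.9% of the 8935 strongest H3K4me3 peaks at gene starts, whose median width was 2505 bp. It held 4 EZH2 peaks, 5 p300 peaks and a single weak N-MYC peak of fold enrichment 4.18, whose summit lay 2885 bp outside the gene. The start of Rhof, annotated 232 bp away, shares this domain. At the high-coordinate end the only peak was H3K27ac, at 8.26.

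**Figure D2:**
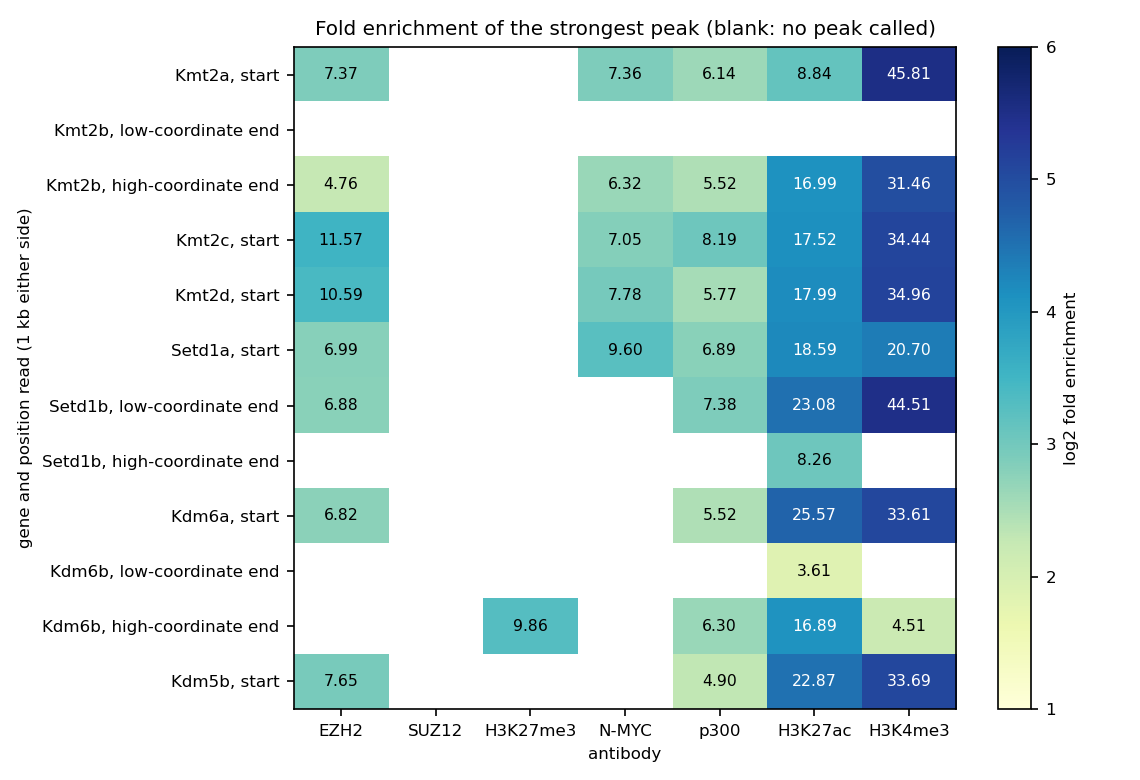
Fold enrichment of the strongest peak that reached within 1 kb of the position named on the vertical axis, for each antibody on the horizontal axis, with colour on a log2 scale. The SUZ12 column is blank throughout, the N-MYC column is filled for Kmt2a, Kmt2b, Kmt2c, Kmt2d and Setd1a, and the one H3K27me3 value, 9.86, is at the high-coordinate end of Kdm6b.

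Kdm6a, the X-linked H3K27 demethylase also called UTX (chrX:18160862-18279936, plus strand), had no N-MYC peak at its start or anywhere over the gene, although its promoter holds the E-box printed above. Its start carried H3K4me3 at 33.61, H3K27ac at 25.57, EZH2 at 6.82 and p300 at 5.52. H3K27ac was the strongest of the 6 genes and above 95.2% of genes. The p300 peak spanned from 363 to 1 bp upstream and so covered the E-box, as did the weaker of 2 EZH2 peaks (5.43), from 288 to 14 bp upstream. With a window of 5 kb, Kdm6a was the 1 gene of the 9 still without N-MYC.

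Calls on the X chromosome were fewer in general. Among genes with H3K4me3 at the start, N-MYC was called at 31.7% of 287 genes on X and 65.8% of 8644 on autosomes, EZH2 at 25.4 and 75.2%, and p300 at 36.6 and 78.8%. Among those with H3K4me3 at least as strong as at Kdm6a, N-MYC was called at 7 of 15 on X and 84.5% of 2266 on autosomes, and EZH2 at 14 of 15 and 98.7%. The part of this lower rate of calls on X in the absence of an N-MYC call at Kdm6a was not tested. Uty, the Y-linked counterpart of Kdm6a, had H3K4me3 at 21.01, H3K27ac at 19.05 and p300 at 3.78, with neither EZH2 nor N-MYC.

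Kdm6b, the second H3K27 demethylase, also called JMJD3 and induced by inflammatory signals (chr11:69398508-69420367), was poorly described by its annotated ends. Within 1 kb of the low-coordinate end lay only an H3K27ac peak of 3.61. At the high-coordinate end H3K4me3 was 4.51, H3K27ac 16.89, p300 6.30 and H3K27me3 9.86, with no EZH2 or N-MYC. That H3K27me3 peak lay outside the gene, beginning 83 bp beyond its end, where the far end of Dnah2 and the lncRNA Gm51903 are annotated, and its summit was 1071 bp away. Inside the gene an H3K4me3 domain of 9410 bp, wider than 99.8% of those at gene starts, had a moderate fold enrichment of 17.95 and held 5 EZH2 peaks (strongest 5.34), 4 p300 peaks (9.25), an N-MYC peak (7.58) and H3K27ac of 25.44. No H3K27me3 or SUZ12 peak touched this domain. The p300 peak was the strongest in any of the 9 H3K4me3 domains.

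Kdm5b (chr1:134560178-134632878, plus strand), the H3K4 demethylase, had a start with the same set of calls as those of Kdm6a and the methylase Setd1b. Its start had H3K4me3 at 33.69, H3K27ac at 22.87, EZH2 at 7.65 and p300 at 4.90, with no N-MYC within 1 kb. The gene Mgat4e spans this start. The profiles of Kdm5b and Kdm6a were 0.26 apart, the smallest distance between any 2 of the 6 genes, and each was at least 3.14 from Kmt2a, Kmt2c, Kmt2d and Setd1a, all of which had N-MYC. Distances to Kmt2b and Setd1b were not measured. N-MYC is among the 7 values of the distance, so a call against none adds largely to it. The most similar other genes were Xrn1 for Kdm5b (0.212) and Mkln1 for Kdm6a (0.18), which had no N-MYC peak either, as distances this small require. Of all 5591 genes with EZH2 and neither SUZ12 nor H3K27me3 at the start, 79.8% had N-MYC, so Kdm5b and Kdm6a belong to the smaller group without it. Among the 64 such genes on X, the chromosome of Kdm6a, the share with N-MYC was lower, at 59.4%. N-MYC was called at a separate element upstream of Kdm5b, as peaks of 5.23 and 5.14 with summits 3842 and 3054 bp before the start, under a p300 peak of 7.13 and an H3K4me3 peak of 14.94 that is separate from the one at the start.

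**Figure D3:**
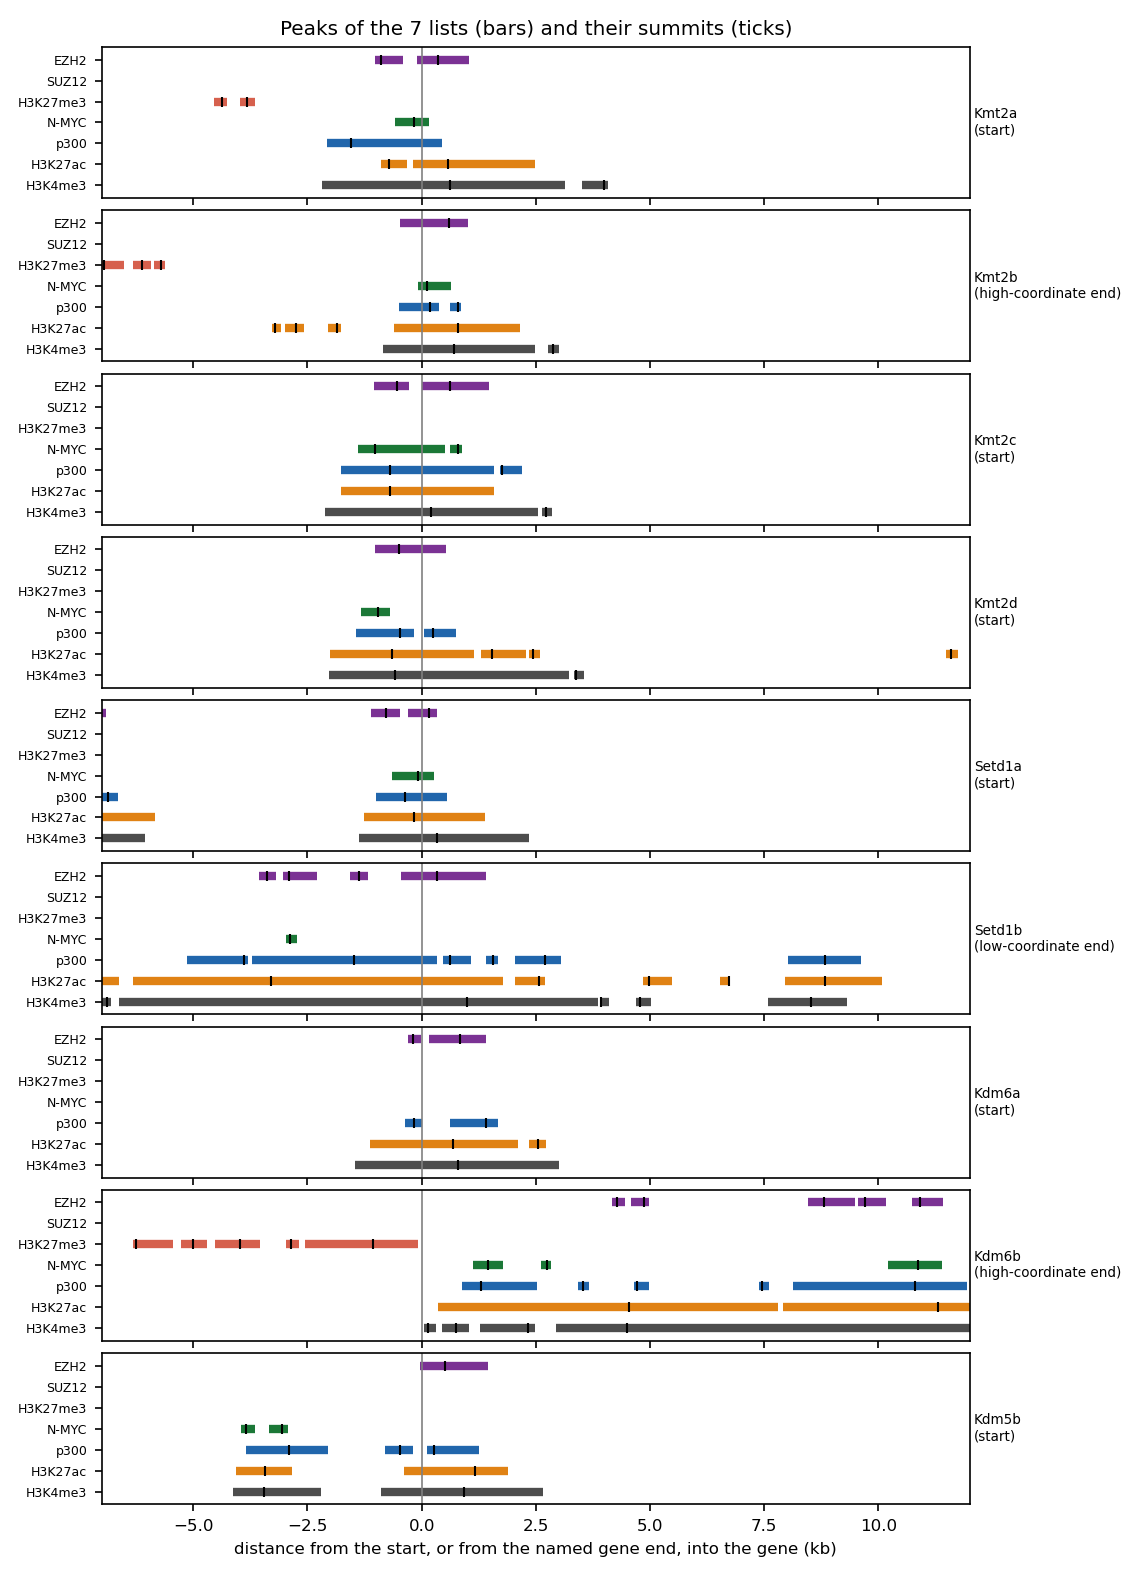
Peaks of the 7 lists (horizontal bars, ticks at the summits) from 7 kb before to 12 kb after position 0. That position is the start, or the gene end named at the right for Kmt2b, Setd1b and Kdm6b, and positive distances run into the gene. For Kmt2d and Kdm6a the start lies inside the annotated gene, so part of what is drawn before 0 is within it. The H3K4me3 bars of Setd1b and Kdm6b are the longest, 10473 and 9410 bp, the latter running just past the right edge, and the N-MYC bars of Kdm5b lie about 3 to 4 kb upstream, apart from its EZH2 peak.

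Ranks of fold enrichment over the 6 genes with a known start put them above the middle for most antibodies. For EZH2 the 6 values ran from 6.82 to 11.57 with a median of 7.51, against 5.83 over all genes with such a peak, and the median rank was above 76.9% of genes. For N-MYC the 4 values ran from 7.05 to 9.60 (median rank 70.6%), for H3K4me3 the 6 values ran from 20.70 to 45.81 (75.9%), for H3K27ac from 8.84 to 25.57 (78.2%) and for p300 from 4.90 to 8.19 (61.4%). The exceptions below the middle were H3K27ac at Kmt2a, H3K4me3 at Setd1a and p300 at Kdm5b, the last above 37.1% of genes.

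**Figure D4:**
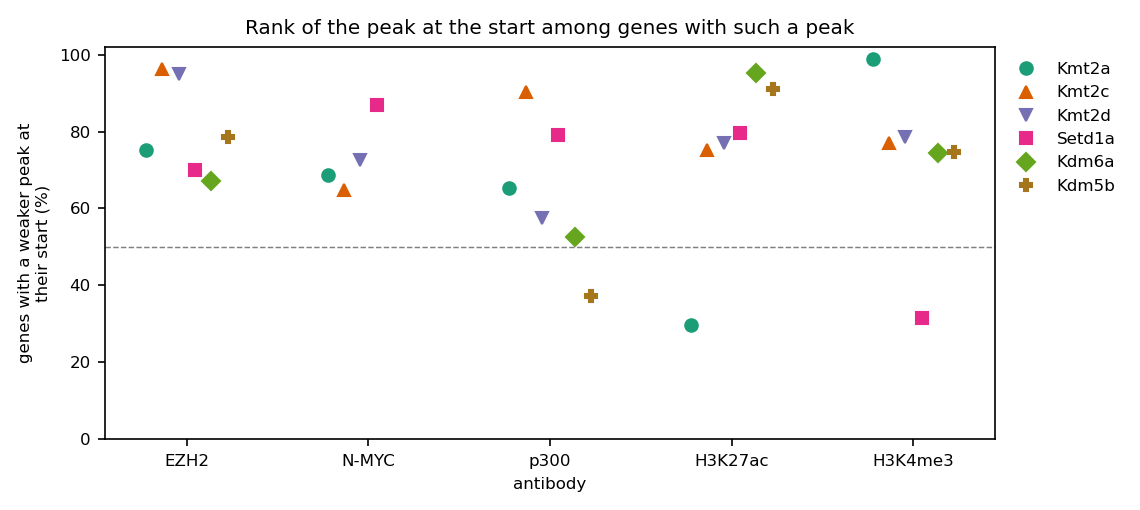
Percentage of genes with a weaker peak of the same antibody at their start, for each of the 6 genes with a known start; the dashed line is at 50%. EZH2 at Kmt2c and Kmt2d, H3K4me3 at Kmt2a and H3K27ac at Kdm6a lie above 95%, while H3K27ac at Kmt2a and H3K4me3 at Setd1a lie near 30%, at 29.6 and 31.6%.

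H3K4me3 domains were wider than the median at gene starts throughout the family. The widths were 5322 bp at Kmt2a, 3323 at Kmt2b, 4662 at Kmt2c, 5255 at Kmt2d, 3723 at Setd1a, 10473 at Setd1b, 4471 at Kdm6a, 9410 at Kdm6b and 3550 at Kdm5b. All 9 exceeded the median of 2505 bp for peaks at gene starts, and the narrowest, that of Kmt2b, was wider than 75.4% of them. Those peaks are of any strength. Whether the widths differ from those at promoters with as much H3K4me3 was not tested. For Kdm6b the domain is the strongest H3K4me3 peak over the gene, not the peak at its annotated end.

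Summits were not stacked on one position. In the 4 methylases with a known start and an N-MYC peak, the N-MYC summit lay upstream of the strongest EZH2 summit when the strongest N-MYC peak was taken, by 520 bp at Kmt2a, 1634 bp at Kmt2c, 465 bp at Kmt2d and 249 bp at Setd1a. Kmt2c had a second, weaker N-MYC peak (4.61) with its summit 806 bp downstream of the start, beyond the EZH2 summit at 618 bp, and since the stronger summit lies 1016 bp upstream, only the weaker one falls within 1 kb of the start. Between strongest peaks, N-MYC lay upstream of EZH2 at 75.0% of the 4353 genes with EZH2, N-MYC, p300, H3K27ac and H3K4me3 and neither SUZ12 nor H3K27me3, where the median N-MYC summit lay 9 bp and the median EZH2 summit 282 bp downstream of the start. The p300 summit was upstream of EZH2 in 5 of the 6 genes (68.9% of 5288 genes), Kmt2d being the exception, with p300 24 bp downstream of EZH2. The EZH2 summit lay on either side of the H3K4me3 summit, upstream of it in 3 of 6 (57.2% of genes). EZH2 was called as 2 peaks at 4 of the 6 starts (Kmt2a, Kmt2c, Setd1a and Kdm6a), against 2 or more peaks at 17.6% of the 5591 genes with EZH2 and neither of the other Polycomb features. That share was not matched for peak strength or width. The median EZH2 fold enrichment was 7.51 at the 6 starts and 5.83 over all genes with EZH2 at the start. The gaps between the 2 EZH2 peaks were 158 to 291 bp long, and at Kmt2c and Kdm6a they contained the start itself.

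Over the gene bodies, from 20.2 kb at Kmt2b to 227.1 kb at Kmt2c and 630.6 kb in all, the Polycomb lists gave no call. SUZ12 had peaks in 0 of the 9 genes (18.5% of 9150 protein-coding genes within that range of lengths) and H3K27me3 in 0 of 9 (35.7%). A list names only what passed its threshold, so weaker SUZ12 or H3K27me3 signal in these genes would not appear. EZH2 had peaks in 9 of 9 (60.2%), p300 in 9 of 9 (53.2%) and N-MYC in 6 of 9 (46.4%), the last being absent from Setd1b, Kdm6a and Kdm5b. In the 6 genes with a known start, no EZH2 or N-MYC peak in the gene lay wholly more than 1 kb downstream of the start, so these body calls come from peaks that reach the promoter window. Some EZH2 peaks extend past it, to 1035 bp downstream of the start at Kmt2a, 1467 at Kmt2c, 1418 at Kdm6a and 1460 at Kdm5b.

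The distance to the nearest H3K27me3 peak varied widely between the genes. It was 0.1 kb at Kdm6b, 3.6 at Kmt2a, 5.5 at Kdm5b, 5.6 at Kmt2b, 18.6 at Kmt2d, 112.4 at Kmt2c, 144.8 at Setd1a, 266.3 at Setd1b and 887.1 kb at Kdm6a. The median was 10.9 kb for the 9150 genes of 20.2 to 227.1 kb. At Kmt2a the nearest peaks (5.41 and 3.50) lay upstream of the start.

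Peak density differed between genes, also between those of like length. Kdm6b had 5 EZH2, 3 N-MYC, 6 p300 and 4 H3K4me3 peaks in 21.9 kb, and H3K27ac covered 62.24% of the gene. Its densities per 100 kb were 22.87 for EZH2 and 27.45 for p300, above 99.7 and 99.9% of the 9150 genes of 20.2 to 227.1 kb. Kdm6b lies near the short end of that range, where a given number of peaks gives a higher density. Setd1b had 10 H3K27ac and 5 p300 peaks in 26.6 kb, and Kmt2d 10 H3K27ac peaks in 42.4 kb. Setd1a, of 22.7 kb, had 1 peak each of EZH2, N-MYC, p300, H3K27ac and H3K4me3, and its H3K27ac density of 4.40 per 100 kb was below the 5.13 of Kmt2a, a gene of 78.0 kb. A single promoter peak gives a higher density in a shorter gene by construction. Kmt2c, the longest, had 1 H3K27ac peak, at its start, in 227.1 kb. No gene compared is longer, so this is the lowest density that a gene with a peak can have. Its rank, above 29.0% of the genes compared, therefore counts only genes without an H3K27ac peak (71.0% had one). Whether peaks inside a gene fall in exons or introns was not analysed here.

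The partners of these enzymes were read in the same way, with values at the start or, where it is not in the table, at either end. Of the 4 COMPASS core genes, Wdr5 and Rbbp5 had EZH2 (5.50 and 4.64), p300, H3K27ac and H3K4me3, and Wdr5 alone had N-MYC (4.30). Ash2l had only H3K27ac (5.71), and Dpy30 had no peak in any list. Of 9 partners of particular complexes, 8 had EZH2, p300, H3K27ac and H3K4me3 and 6 had N-MYC, against 44.9% of all genes with EZH2 and 33.2% with N-MYC, and 87.7 and 76.3% of the promoters with strong H3K4me3. Ncoa6, a partner of KMT2C and KMT2D, had no peak at its start, but when either gene end was read all 9 had EZH2 and 8 had N-MYC. The share of all genes at that reading was not computed, so the shares above do not apply to it. Nor are those shares a like measure for the 2 partners without a start in the table. For the 9 enzyme genes the same reading lowered the EZH2 count from 8 to 7 and the N-MYC count from 5 to 4. Kdm6a lost its EZH2 and p300 calls. Kmt2d lost its N-MYC call, and its EZH2 value was 7.29, from a peak other than that at its start. The starts used for Kdm6a (chrX:18162575) and Kmt2d (chr15:98871205) lie inside the annotated genes, so the profiles described for them depend on that choice of start. For the PRC2 genes, described below, it lowered the EZH2 count from 9 to 8. Men1, the menin gene whose protein tethers KMT2A, had EZH2 at 6.58 and H3K4me3 at 36.33 without N-MYC. Of 6 related demethylases, 3 had EZH2, 4 had N-MYC and 6 had H3K4me3. The Y-linked Kdm5d and Uty lacked N-MYC.

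The Polycomb genes that oppose the family were read likewise, and their counts too are near those of promoters with strong H3K4me3 (EZH2 at 87.7%, N-MYC at 76.3% and p300 at 92.2%). Of the 11 genes of the PRC2 list, 9 had EZH2, 10 had N-MYC and 11 had p300, H3K27ac and H3K4me3, while 0 had SUZ12 and 1, Ezh1, had H3K27me3 (5.33). Those without EZH2 were Rbbp7 and Phf1, and the one without N-MYC was Phf19. Chosen after its values were seen, Ezh2 had the highest N-MYC fold enrichment of the list, 13.16, above the 9.60 at Setd1a, which was the highest at the start of any of the 9 genes. EZH2 fold enrichment at the PRC2 genes went up to 8.60, at Suz12, below the values at Kmt2c and Kmt2d. Ep300 and Crebbp, the H3K27 acetyltransferases, carried the same 5 features as Kmt2a, with EZH2 at 7.31 and 10.47.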

How the data were processed

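ChIPmentation libraries of 7 antibodies, 1 each, were read as the peak lists that the authors deposited; 2 input libraries were not used. The submitters' processing notes name FastQC, Bowtie2, SAMtools, MACS2 and deepTools and the builds mm10 and GRCm38, without versions, roles or settings; whether the inputs served as controls and whether libraries were pooled is not given in the sources used here. Fold enrichment is a linear ratio over background, and p-values and q-values are −log10 values, both as deposited; every list ends at a q-value of about 0.01. A whole-number score column, as deposited, is 10 times the −log10 q and entered no result. Read depth is unknown, so no interval is given.

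Starts and strand came from the RefSeq promoter table (GRCm38.p6), the most upstream start where it gives several. Peaks within 1 kb of the start counted at an overlap of 1 bp or more, and the strongest represented its list. Gene bodies ran between the annotated ends, beside 9150 genes of the members' range of lengths. Ranks are shares of genes with a weaker peak. Most similar genes had the smallest Euclidean distance over log2(fold enrichment + 1) in 7 lists. All members are named; of the other lists, up to 4 genes each that lack a peak most of their list has or have one most lack; a few with high or low values, such as Wdr5, Rbbp5 and Suz12, were added after the values were seen. Reading was tested on simulated data. Python 3.11.15, pandas 2.3.3 and numpy 2.4.6 were used. The members and gene lists were chosen with earlier results of these data known. Alternatives for window, threshold, list length and start are in the closing section.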

Additional observations from a re-analysis of the deposited data

How the results depend on the processing

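Of 136 alternative values for 17 results, 121 stayed within 1.5 times a count or within the 95% Wilson interval of a rank, and 15 did not. That interval served only as a yardstick for a change of rank and does not measure the spread between the members or between libraries. The cause of a change was not tested unless the setting itself shows it. Windows of 0.5, 2 and 5 kb, summits in the window or gene, a q-value of at most 1e-05, a fold enrichment of at least 4, lists cut to 9798 peaks, any annotated start, the whole H3K4me3 peak, all genes as the base of the ranks and, added after seeing the data, either end of every gene were tried. A window of 5 kb, which takes in peaks farther out, raised the N-MYC count from 5 to 8 of the 9 genes, the count with EZH2, N-MYC, p300, H3K27ac and H3K4me3 to 8 and the H3K27me3 count from 1 to 2 (Kmt2a and Kdm6b). With summits in the window the H3K27me3 count was 0, since the Kdm6b summit lies outside it. Without the first 1 kb of the body, N-MYC peaks were left in 1 gene, EZH2 peaks in 7 and p300 peaks in 6. The median EZH2 rank of 76.9% became 79.2% with summits in the window, 74.4% at the stricter q-value, 74.1% at a fold enrichment of at least 4 and 89.6% among all genes. The N-MYC rank of 70.6% became 68.5% at 0.5 kb, 68.8% at 5 kb, 68.5% at the stricter q-value, 67.4% at the stricter fold and 88.9% among all genes. The H3K4me3 rank of 75.9% became 87.7% among all genes. No paired analysis was possible because each antibody had 1 library.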
